A study of Saccharomyces cerevisiae with 4 samples.

Results

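In yeast (Saccharomyces cerevisiae) that received no cycloheximide, ribosomes biotinylated near the mitochondrial protein Om45 (pulldown) were compared with all ribosomes of the culture (input). The comparison covers nuclear genes with at least 100 footprint reads over the pulldown and the input, which were 5148 of 6664 nuclear genes in a table of 6692 genes. For each gene the reads of both libraries were scaled to the nuclear reads of the library, and enrichment is the log2 ratio of pulldown to input relative to the median gene. The 1516 nuclear genes below the minimum, 8 of them with an annotated mitochondrial compartment, have no value here. Pulldown reads count toward the minimum, so a gene with very few input reads has a value only if its pulldown count is high. The direction of such a value was set by the minimum. MIP6, YIL024C and YMR013C-A lay just inside the minimum, with values of 0.24, 0.07 and -0.10, and DOG1 (64 input and 35 pulldown reads), CSM2 (46 and 52) and YNL162W-A (48 and 50) lay just outside.

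All libraries came from an S288C strain in which the OM45 gene at its own locus (om45::OM45-mVenus-BirA::HIS5) made a fusion to the fluorescent protein mVenus and the biotin ligase BirA. Both Rpl16 genes, rpl16a and rpl16b, carried HA, TEV and AVI tags, and the strain was also ura3Δ0, met15Δ0 and his3Δ1. The genotype further lists BirA under the PGK1 promoter at leu2 (leu2::pPGK1-BirA::LEU2), a ligase that would not be tied to the mitochondrion. Cells grew in SD medium with 0.125 ng/ml D-biotin and then received 10 nM biotin for 2 min. In the pair of libraries set beside this one, 100 µg/ml cycloheximide was given for 2 min before the biotin; nothing else in the labels differs. Each of the 4 groups held 1 library of this 1 strain, so no value has a replicate check, no p-value is given, and bracketed 95% intervals cover counting error only.

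Most mitochondrial proteins are encoded in the nucleus, made by cytosolic ribosomes and imported through the TOM complex of the outer membrane. Many carry a cleavable N-terminal presequence that directs them through the TIM23 complex to the matrix or inner membrane, whereas carriers of the inner membrane and small proteins of the intermembrane space use internal signals. BirA attaches biotin to the AVI tag of nearby ribosomes, so a message is enriched when its ribosomes spend the biotin pulse close to Om45, and cycloheximide stops elongation and holds ribosomes on their messages. In a bulk library, an enrichment shared by all cells and a stronger one in some of them cannot be told apart.

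The input held 18172572 reads and the pulldown 15705022. Genes with an annotated mitochondrial compartment made up 7.53% of the input's nuclear reads (7.51 to 7.54 by Wilson's method). Their share of the pulldown was 11.29% (11.27 to 11.30), and with cycloheximide the shares were 9.69% and 36.9%. Before centring, the median gene stood at -0.03, and at -0.73 with cycloheximide. The middle 50% of all genes lay between -0.17 and 0.22, and the median 95% interval reached 0.149 to either side. URA3 and MET17 (MET15), labelled as deleted, had 0 reads in both libraries, and HIS3 had 1211 and 901. LEU2, the labelled marker of the PGK1-driven BirA, had 0 reads in the input and 2 in the pulldown, so the reads go against the labelled marker if it is the S. cerevisiae gene. The labels do not give the species of the marker, and whether the free ligase was present, and so could have biotinylated ribosomes away from Om45, was not settled by these reads. The fusion partner OM45 (chromosome IX, positions 93619 to 94800 of R64, the build named sacCer3) had 563 reads in the input and 2285 in the pulldown, a log2 enrichment of 2.26 (2.13 to 2.40). The tagged ribosomal protein genes RPL16A and RPL16B stood at -0.10 and -0.19.

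Of the 5148 genes, 329 (6.39%) stood 2-fold or more above the median gene, here called enriched. Only 4 (0.0777%) stood 2-fold or more below it. Of 517 genes with a mitochondrial compartment in the authors' annotation, 188 (36.4%) were enriched, with a median of 0.47. Of 501 genes called mitochondrial by Gene Ontology alone, 63 (12.6%) were, and of 54 listed by the MITOP2 database without a compartment, 9 were. Of 4076 genes without mitochondrial annotation, 69 (1.69%) reached 2-fold and the median was -0.03. All 4 genes below -1 lacked a compartment: ATG12 (94 input and 39 pulldown reads), WSS1 (80 and 31), GLG1 (122 and 45) and YDR132C (178 and 70), the last with a Gene Ontology call.

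**Figure D1:**
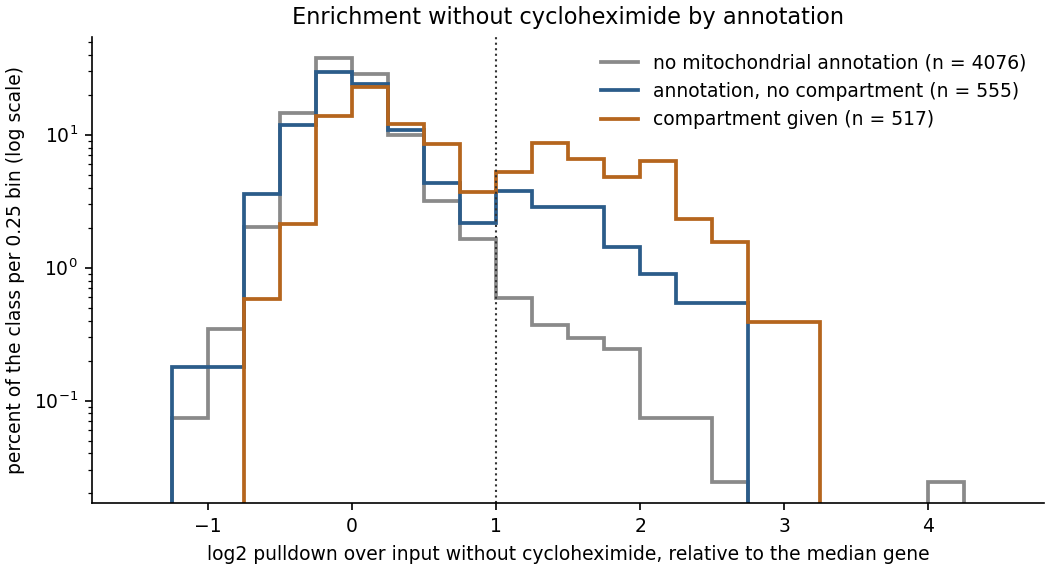
Distribution of log2 enrichment without cycloheximide in 3 annotation classes, as the percent of each class per 0.25-wide bin on a log scale; the dotted line marks 2-fold. Genes with a compartment spread to the right of the line (188 of 517), while 69 of 4076 genes without annotation lie there.

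Many of the highest values belonged to large enzymes and membrane proteins, with input counts that ranged widely. The 15 highest also held genes with few input reads, such as PAU17 (18) and NDE2 (47). HFA1, the mitochondrial acetyl-CoA carboxylase (chromosome XIII, 677193 to 683564), had 310 input and 2305 pulldown reads, giving 3.14 (2.97 to 3.31). MIS1, the mitochondrial C1-tetrahydrofolate synthase (chromosome II, 411054 to 413981), had 3805 and 25809 reads, giving 3.0 (2.96 to 3.05). MGM1, which encodes a dynamin-like GTPase that fuses inner membranes (chromosome XV, 738924 to 741569), had 1391 and 9288 reads, giving 2.98 (2.90 to 3.06). Each of these pulldown counts was several times its input count in libraries of similar size. YME2, an inner membrane protein, followed at 2.89 (1130 and 7086 reads), the RNA helicase gene SUV3 at 2.72 (230 and 1284) and YTA12, which encodes part of the matrix-facing AAA protease, at 2.71 (1491 and 8242). The single gene above HFA1 was YMR013W-A at 4.13, whose 6 input and 96 pulldown reads leave an interval of 3.07 to 5.72. It passed the read minimum only through its pulldown count. The gene was not found in the reference gene table and had too few reads for a value with cycloheximide.

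The compartments differed in how many of their genes were enriched. Inner membrane genes came first, with 74 of 153 (48.4%) at least 2-fold above and a median of 0.86. Genes annotated as mitochondrial with no subcompartment followed, with 51 of 123 (41.5%), and matrix genes had 53 of 190 (27.9%) and a median of 0.40. Outer membrane genes had 6 of 26 and intermembrane space genes 4 of 25. With cycloheximide, where 682 of 5464 genes (12.5%) reached 2-fold, the inner membrane, matrix and unspecified classes stood close together at 69.3%, 70.0% and 71.5%. Without the drug the matrix class was thus the lowest of these 3, and with it the median of the matrix (2.63) was above that of the inner membrane (2.40).

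**Figure D2:**
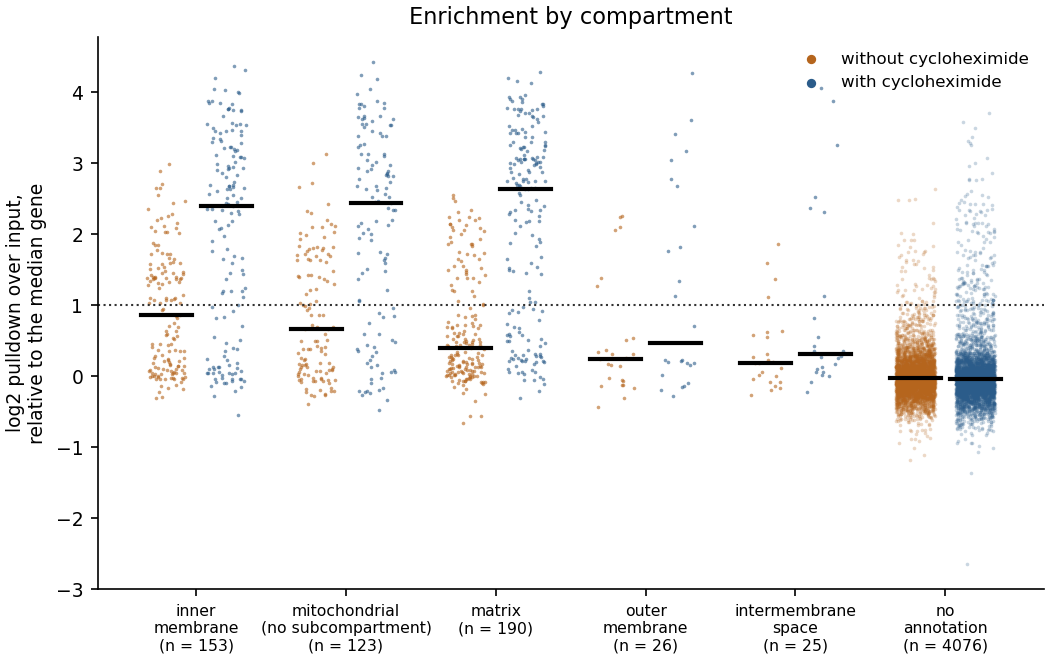
Log2 pulldown over input relative to the median gene by annotated compartment, 1 point per gene, without (orange) and with (blue) cycloheximide; black bars are medians and the dotted line marks 2-fold. Inner membrane genes have the highest median without the drug (0.86), and matrix genes the highest with it (2.63).

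The extremes of each class were as follows. In the matrix, MSS116, a DEAD-box helicase of intron splicing, had 2076 input and 10333 pulldown reads (2.56), while HMI1, a mitochondrial DNA helicase, had 229 and 122 (-0.66). HMI1 is known in yeast for a targeting signal at the C terminus instead of the N terminus. In the outer membrane the highest after OM45 was the import receptor gene TOM70 (6351 and 25327 reads, 2.24). The fission adaptor gene MDV1 (520 and 1885, 2.10) and the TOM70 paralog TOM71 (1542 and 5409, 2.05) followed, and the lowest was SAM37, a subunit of the sorting and assembly machinery (560 and 349, -0.44). In the intermembrane space the highest was MIA40, the receptor of the disulfide relay (3006 and 9231, 1.86). Mia40 is anchored in the inner membrane by a presequence route, and the small relay substrates of the same compartment stood apart from it: TIM9 had 783 and 552 reads (-0.26).

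Protein length separated the compartment genes. Of 206 genes for proteins under 300 residues, 18 (8.74%) were enriched, and of 311 genes for longer proteins 170 (54.7%) were. In finer steps the shares were 1.32% below 150 residues, 13.1% from 150 to under 300, 52.1% from 300 to under 450, 56.7% from 450 to under 600, 63.8% from 600 to under 800 and 46.7% (14 of 30) from 800. The single enriched gene below 150 residues was SOM1, a 74-residue subunit of the inner membrane peptidase (73 and 156 reads, 1.33, interval 0.93 to 1.76). SOM1 stood at 0.39 with cycloheximide, and it passed the read minimum only through its pulldown count. With the drug the class from 150 to under 300 residues reached 57.7%, against 13.1% without it. The read minimum bears on short genes first, since a short gene needs more footprints per length to reach it. Among genes without annotation, 1.55% below 300 residues and 1.76% above reached 2-fold. Across the 517 compartment genes, Spearman's rho between length and enrichment was 0.42, given as a description because all points share the same libraries. With cycloheximide it was 0.52. Within the 311 genes for proteins of 300 residues or more, rho without the drug was only 0.14. Within the inner membrane class the longer genes reached 66 of 94 (70.2%) and the shorter 8 of 59 (13.6%).

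The MitoProt score, a prediction from sequence of how likely a protein carries a presequence, ordered the compartment genes as a whole less strongly (Spearman's rho 0.21). Within proteins of 300 residues or more this did not hold, with a rho of 0.20 for the score and 0.14 for length. Of 246 compartment genes scoring 0.9 or more, 108 (43.9%) reached 2-fold, and of 123 scoring below 0.25, 32 (26.0%) did. With cycloheximide the highest bin stood at 83.7%. Length and score together gave 60.2% (97 of 161) for long proteins scoring 0.9 or more and 40.3% (29 of 72) for long proteins below 0.25. Short proteins scoring 0.9 or more were at 12.9% (11 of 85), under the long proteins of the lowest score. With cycloheximide those short high-scoring genes stood at 55.3% and the long ones at 98.8%. In genes without annotation a score of 0.9 or more went with 6 of 160 enriched (3.75%).

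**Figure D3:**
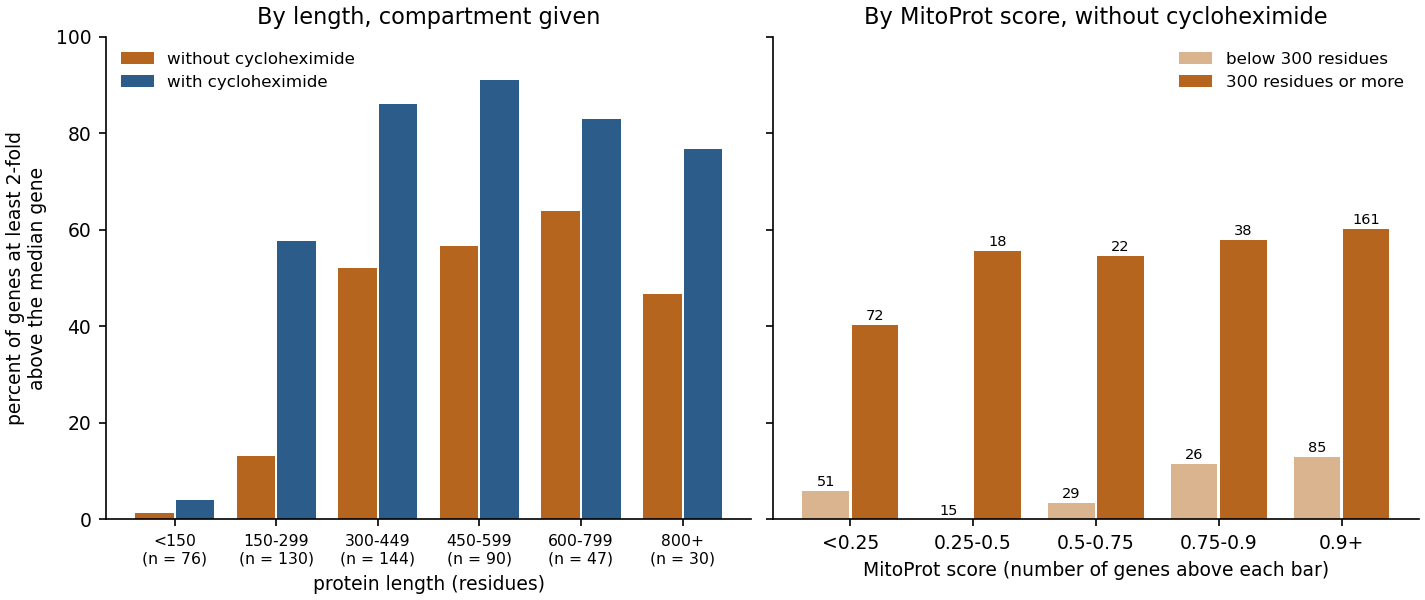
Percent of compartment genes that were enriched (2-fold or more): left, by protein length without and with cycloheximide; right, by MitoProt score without the drug, split at 300 residues, with the number of genes above each bar. Without the drug the share goes from 13.1% just below 300 residues to 52.1% just above, and short proteins stay low in every score bin.

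Enrichment without cycloheximide was also lower in genes with many footprints per length. The compartment genes were split into 3 groups of equal size by RPKM in the input with cycloheximide, a library that does not enter the ratio. At least 2-fold enrichment was seen in 99 of 173 genes (57.2%) of the lowest group, 68 of 172 (39.5%) of the middle group and 21 of 172 (12.2%) of the highest group. Length and level vary together (Spearman's rho -0.52, n = 517), so the split was repeated within proteins of 300 residues or more. There the shares were 66.3%, 59.6% and 37.9%. In the same 3 groups with cycloheximide they were 84.6%, 85.6% and 88.3%, where the level comes from the input that also enters the ratio. With the level taken from the other pair's input each time, Spearman's rho over the 311 longer genes was -0.26 without the drug and 0.23 with it. All points of a pair share its libraries, and the part that depth or ribosome density has in these relations was not tested.

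**Figure D4:**
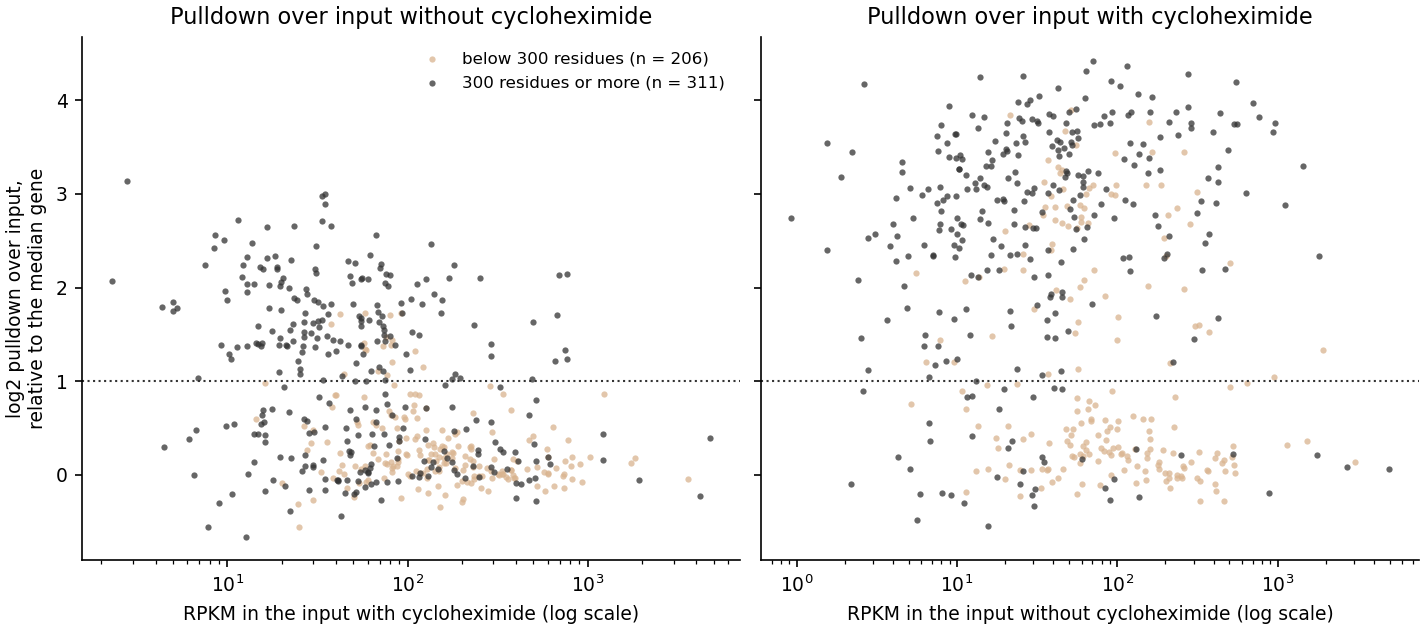
Log2 enrichment of the 517 compartment genes against RPKM in the input of the other pair (log axis), without (left) and with (right) cycloheximide, coloured by protein length. At high RPKM many long proteins lie near 0 without the drug and well above the dotted 2-fold line with it.

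The inner membrane and the matrix differed within long proteins as well. In proteins of 300 residues or more, 66 of 94 inner membrane genes (70.2%) and 46 of 99 matrix genes (46.5%) were enriched, with medians of 1.38 and 0.72. With cycloheximide the counts were 87 of 94 and 94 of 99. The median input RPKM with cycloheximide was 33.6 for the inner membrane genes and 61.6 for the matrix genes. In the lowest of the 3 level groups 24 of 35 inner membrane genes (68.6%) and 21 of 29 matrix genes (72.4%) were enriched. In the middle group the counts were 29 of 35 (82.9%) and 15 of 32 (46.9%), and in the highest group 13 of 24 (54.2%) and 10 of 38 (26.3%). The inner membrane share was the higher in the middle and highest groups, and the lower in the lowest group.

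Lists of genes with a common function, drawn from general knowledge, ranged from nearly all to nearly none enriched. Beside them, 6.39% of all measured genes and 36.4% of compartment genes were enriched. Mitochondrial aminoacyl-tRNA synthetases, long matrix enzymes with few footprints per length (median input RPKM 18.2 with cycloheximide), were enriched in 13 of 14, with a median of 1.91. The leucyl enzyme gene NAM2 was highest, with 492 input and 2360 pulldown reads (2.50). The exception was PET112, a subunit of the glutamyl-tRNA amidotransferase (233 and 197 reads, 0.00). Mitochondrial translation factors had 9 of 13 enriched and a median of 1.96, led by the elongation factor gene MEF1 (1580 and 8458 reads, 2.66). Translational activators and RNA processing factors had 14 of 26 enriched. All 3 ABC transporters of the inner membrane were enriched, with a median of 2.64.

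The mitochondrial carrier family had 17 of 30 genes enriched, with a median of 1.09. The compartment is the inner membrane for 29 of them, whose family is known to be imported with internal signals, and the outer membrane for UGO1, a fusion factor (-0.17). The ADP/ATP carrier gene PET9 had 16501 input and 35147 pulldown reads, giving 1.33 (1.31 to 1.36), at a high input level. The lowest carrier was AGC1, the aspartate/glutamate carrier (337 and 231 reads, -0.30), whose protein is among the longest of the family. The MitoProt score was below 0.25 in 25 of the 30 carriers (median 0.0875) and in 14 of the 17 enriched ones. Of all measured genes 6.39% were enriched. Among all inner membrane genes for proteins of 300 residues or more, 66 of 94 (70.2%) were, and 17 of the 28 scoring below 0.25. These classes overlap the carriers, and the carrier share is no trait particular to the family.

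Enzymes of the TCA cycle and pyruvate dehydrogenase were enriched in 1 of 19 without the drug and in 19 of 19 with it. Their median without the drug was 0.18, their median length 463 residues and their median MitoProt score 0.97. Over all measured genes 6.39% were enriched without the drug and 12.5% with it. The 1 enriched gene of this list without the drug was CIT3, a minor citrate synthase with 60 input and 234 pulldown reads (2.20). The main enzyme CIT1 had 11689 and 11211 (0.18, interval 0.15 to 0.22). CIT3 passed the read minimum only through its pulldown count, so its contrast with CIT1 is no result. MDH1, malate dehydrogenase, had 4301 and 4102 reads (0.17) and stood at 3.87 with the drug. Subunits of respiratory complexes and ATP synthase had 5 of 41 enriched, led by the NADH dehydrogenase gene NDE2 (47 and 236 reads, 2.56). NDE2 passed the read minimum only through its high pulldown count. The mitochondrial ribosome had 15 of 70 enriched, led by MRPL3 (1132 and 4209 reads, 2.14), and the small intermembrane space proteins 1 of 17, namely MIA40.

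Import machinery was split between enriched and other subunits. Of 16 genes for the TOM and SAM complexes and porins, 5 were enriched, and of 9 for the TIM23 complex and motor, 2 were, led by TIM50 at 2.04. The carrier translocase and insertase list had 5 of 8, led by TIM54 at 2.15. Matrix chaperones had 6 of 14 enriched. The main Hsp70 gene SSC1 (52601 and 43427 reads, -0.03) and the chaperonin gene HSP60 (35290 and 27772, -0.10) were below the median gene. The minor Hsp70 gene ECM10 (33 and 118, 2.07) had the highest value. It passed the read minimum only through its pulldown count, so its contrast with SSC1 is no result. Of the remaining mitochondrial lists, those for amino acid synthesis in the matrix (12 of 22), coenzyme Q synthesis (6 of 10) and proteases (10 of 17) had more than 1 in 2 genes enriched. Fusion, fission and distribution had 9 of 18, cardiolipin and phospholipid synthesis 5 of 11, assembly factors of the respiratory complexes 12 of 29, mitochondrial DNA maintenance 6 of 16 and iron-sulfur cluster assembly 4 of 16. In all, 152 of 404 genes on the 21 mitochondrial lists were enriched (37.6%) and 7 of 188 on the 9 lists of other cell parts (3.72%). None of the 20 cytosolic ribosomal proteins, 18 glycolytic genes or 24 genes of translocation and folding in the endoplasmic reticulum reached 2-fold. The nuclear pore list had 2 of 26 enriched, and single genes were enriched among 19 of the plasma membrane and wall (TIR1, a cell wall mannoprotein, 1.22), 15 of the vacuole, 14 of the peroxisome (POT1, the thiolase of beta-oxidation, close to the threshold), 31 of the proteasome and 21 cytosolic tRNA synthetases. The shares of these lists, from 3.23% (proteasome) to 7.69% (nuclear pore), were near the 6.39% of all measured genes.

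Mitochondrial proteins were compared in 26 pairs with counterparts of like function, taken from general knowledge as lying elsewhere in the cell. The authors' annotation differs for some counterparts. ALD6 has the compartment mitochondrial there, and ACC1, CIT2, GUS1, THS1 and YDR341C are called mitochondrial by Gene Ontology alone. The mitochondrial member was enriched in 19 pairs and the other member in 1, beside 6.39% of all measured genes and 36.4% of compartment genes. Medians were 1.77 and -0.10. The mitochondrial member was higher in 23 pairs, in 17 of them by at least 2-fold. Intervals did not overlap in 22 of the 23, and the mitochondrial member was lower with intervals apart in 1 pair. The intervals cover counting error only and are narrow at high counts. Small differences, such as 0.13 for CIT1 and CIT2, thus count among the 22. How often intervals lie apart in other pairs of genes was not computed, so the 22 show no trait of these pairs. HFA1 (3.14) stood beside ACC1, the cytosolic carboxylase, with 60890 and 47536 reads (-0.11), and MIS1 (3.0) beside the cytosolic ADE3 with 15854 and 12591 (-0.09). These pairs hold proteins of similar length and function whose values differ by more than 3 log2 units.

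In the other 7 pairs the mitochondrial members were ALD4 (0.44), BAT1 (0.24), CIT1, MDH1, ADH3 (0.15), SSC1 and AAT1, all but AAT1 above 2-fold with cycloheximide. CIT1 and CIT2 stood at 0.18 and 0.06, MDH1 and MDH2 both at 0.17, and SSC1 and SSA1 at -0.03 and -0.01. The aspartate aminotransferase gene AAT1 (747 and 524 reads, -0.27) was below its cytosolic counterpart AAT2 (9683 and 11670, 0.51). The enriched counterpart was CDC60, the cytosolic leucyl-tRNA synthetase, with 19163 and 48462 reads (1.58, interval 1.56 to 1.61). Its mitochondrial partner NAM2 was higher still. IDP2, the counterpart of IDP1 (1.71), had 8 and 16 reads and no value.

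**Figure D5:**
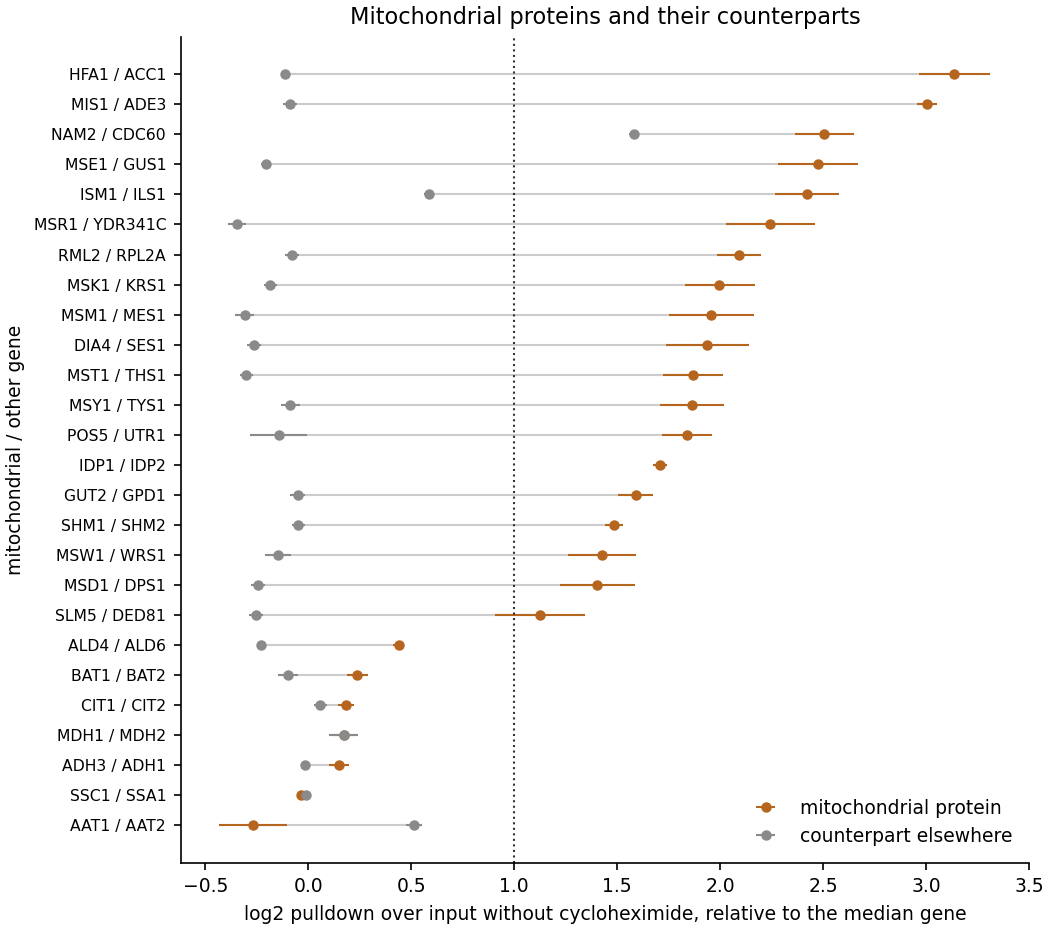
Log2 enrichment without cycloheximide of 26 mitochondrial proteins (orange) and counterparts taken as lying elsewhere (grey), with 95% counting intervals and pairs joined by lines; the dotted line marks 2-fold. Some counterparts, such as ALD6, carry a mitochondrial annotation. The mitochondrial member lies past 2-fold in 19 pairs, and CDC60 is the only counterpart there.

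Paralogs from the whole-genome duplication were also set side by side, whatever their annotation. Of 468 such pairs with both members measured, 30 had 1 member enriched and 11 had both. Over all measured genes 6.39% were enriched. Pairs with both members enriched included TOM70 and TOM71, the NADH dehydrogenases NDE2 and NDE1 (2.56 and 2.35), the isopropylmalate synthases LEU4 and LEU9 (both 2.14) and the fission adaptors MDV1 and CAF4 (2.10 and 2.01). LEU4 had a MitoProt score of 0.0892, 9503 input and 35459 pulldown reads. Pairs with 1 member enriched included the thioredoxin reductases TRR2, mitochondrial (237 and 612 reads, 1.61), and TRR1, cytosolic (12158 and 10057, -0.03). Other pairs had no compartment for either member. Among these were NUP170 and NUP157 (1.81 and 0.01) and SPT23 and MGA2 (1.14 and -0.27), with 1 enriched, and GRE1 and SIP18 (1.75 and 1.62), with both. GRE1, SIP18 and NDE2 passed the read minimum only through their pulldown counts, so the direction of their values was set by the minimum. The sources used here do not say how reads that match both paralogs were assigned, so values of near-identical paralogs are uncertain.

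Localization of GFP fusions, a microscopy label compiled by the authors, was compared as a readout independent of these libraries. Of 264 genes labelled mitochondrion alone, 101 (38.3%) were enriched, with a median of 0.56. Of 459 labelled cytoplasm, 9 were, of 482 labelled cytoplasm and nucleus, 6, of 273 labelled nucleus, 3, of 159 labelled ER, 3, and of 62 labelled vacuole, 0. Among the other single labels with at least 10 measured genes, the nuclear periphery had the highest share, 3 of 30 (10.0%), led by NUP170. The share over all measured genes was 6.39%, and the median of the nuclear periphery label was -0.11, so these 3 genes show no trait of the label. Compartment genes whose label included mitochondrion were enriched in 81 of 206 (39.3%), and those with another label only in 5 of 38 (13.2%). Genes annotated without a compartment but labelled mitochondrion alone reached 26 of 68 (38.2%), near the 75 of 194 (38.7%) of compartment genes with that label. The 2 genes labelled mitochondrion alone with no annotation, YPS3 and GYP8, did not reach 2-fold.

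Among compartment genes, nearly all that were enriched without the drug were also enriched with it. Of the 188 enriched compartment genes, 186 (98.9%) were also enriched with cycloheximide, and these were 53.8% of the 346 enriched there. Over all genes measured in both pairs the share was 92.4%, with 25 genes enriched without the drug alone, and for genes without annotation it was 72.1% (49 genes, against 19). The 2 compartment genes below 2-fold with the drug were SOM1 and THI4, a thiazole synthesis enzyme with 47 and 138 reads (1.79, interval 1.31 to 2.31). The share of genes enriched with the drug that were also enriched without it was 68.9% in the inner membrane and 39.8% in the matrix. Within those genes MitoProt score and enrichment without the drug had a Spearman's rho of -0.03 (n = 346).

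The 69 enriched genes without mitochondrial annotation were of mixed kind. Of them, 50 had an interval wholly above 2-fold, and 49 were also enriched with cycloheximide. Of the 50 with at least 100 input reads, 44 were enriched in both pairs. Of the 19 with fewer, 13 were below 2-fold with the drug. These 19 passed the read minimum only through their pulldown counts, so the contrast between the 50 and the 19 is no result. A MitoProt score of 0.5 or more was found in 24.6% of the 69 and in 14.1% of all genes without annotation. Of 21 with a GFP label, 1 named the mitochondrion.

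Several had high counts. RAD2, a nuclease of nucleotide excision repair, had 517 input and 2463 pulldown reads (2.49) and stood at 3.58 with cycloheximide. ASH1, a daughter-cell repressor of mating-type switching, had 2521 and 11884 reads (2.48), and its message is known for transport to the bud. Both were enriched in each pair. SAC7, a GTPase-activating protein of Rho1, had 879 and 3004 reads (2.02) and HAP1, a haem-responsive transcription factor, 3276 and 10500 (1.92). HUG1, a small inhibitor of ribonucleotide reductase, had 510 and 1554 (1.85), and its protein is under 150 residues. TKL2, a minor transketolase, and PAU17, of the seripauperin family of near-identical genes, rested on 34 and 18 input reads and are less certain. Both passed the read minimum only through their pulldown counts. Single members of other lists stood out too: NUP170 of the nuclear pore (1966 and 5836 reads, 1.81), the vacuolar mannosidase gene AMS1 (984 and 2314, 1.48) and RPN2 of the proteasome (10246 and 19127, 1.14).

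The authors' deposited table carries its own enrichment call for this pair. It calls 223 of the measured genes enriched, with values here of 1.27 and up. By the authors' deposited table another 4706 measured genes were not enriched, of which 69 were 2-fold or more above here. A further 219 have no call in the authors' deposited table, of which 37 were. The genes with no call had 6 to 99 input reads.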

How the data were processed

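Ribosome footprints were counted in 4 libraries, an input and a pulldown with and without cycloheximide, grouped by sample title. Per the file headers, the authors deposited raw read counts per gene, RPKM (scaled by the authors to gene length and library size), the authors' log2 enrichment, protein length, the MitoProt score (a fraction from 0 to 1, predicted by the authors), annotation, GFP labels and their enrichment calls. Per the submitters' processing notes, CASAVA and genome build sacCer3 were used; the sources used here do not give the aligner, the read-length filter or how multiply mapping reads were handled. The deposited table holds 5 more columns of per-sample values, not used here.

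Computed here were log2 ratios of counts plus 0.5, scaled to nuclear reads and centred on the median gene with at least 100 reads. "Enriched" means at least 2-fold above that gene. Intervals are exact Clopper-Pearson intervals at 95% on the pair of counts; reads carry no molecular identifiers, so they cover counting error only. With 1 library per group no test was made. Coordinates are from the RefSeq R64 gene table, which held 5105 of the measured genes.

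The genes compared, the 30 gene lists and the 26 pairs were chosen with earlier results of these data known. Genes named are those ranked highest or lowest of all genes, without annotation, and in each compartment, MitoProt, length and GFP class; the highest, lowest and most central of each list; all pairs; OM45, RPL16A and RPL16B; those nearest the read minimum; and the 10 with the largest difference between pairs each way (215 genes, of which some are printed). Paralogs from the genome duplication, MDV1, TOM71, UGO1, PET9, YPS3, GYP8, COX1, AI1, the strain markers and the genes of the other observations lie outside this rule and were chosen after their values were seen. Features of N-terminal sequences were not analysed here. Alternatives were library totals, TMM scaling, a pseudocount of 1, other read minimums, folds of 1.5 and 4, the authors' log2 values and leaving out genes that share both counts; use of any mitochondrial annotation in place of a compartment was added after seeing the data. The procedure was tested on simulated data. Python 3.11.15, numpy 2.4.6, pandas 2.3.3, scipy 1.17.1, matplotlib 3.10.9, R 4.3.3 and edgeR 4.0.16 (TMM) were used.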

Additional observations from a re-analysis of the deposited data

Results flagged for a closer look

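Genes of the mitochondrial genome, translated inside the organelle and outside the comparison, held 106 of the input reads and 412 of the pulldown reads. That was 0.00262% of the pulldown without cycloheximide against 0.000583% of its input, and with cycloheximide the shares were 0.000846% in the pulldown and 0.00141% in the input. COX1 had 18 input and 62 pulldown reads, and the intron frame AI1 had 2 and 50. These reads did not enter any ratio, and the difference was not tested.

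Several abundant mitochondrial proteins stood slightly below the median gene without the drug and far above it with the drug. Enrichment with cycloheximide minus enrichment without was 2.82 for KGD1, a subunit of 2-oxoglutarate dehydrogenase, 3.22 for ILV3, dihydroxyacid dehydratase, 3.34 for SSC1, the main mitochondrial Hsp70, and 2.98 for HSP60, the chaperonin. The counting interval lay below 0 without the drug and above 2-fold with it for each of the 4. With 1 library per group the difference between conditions was not tested.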

How the results depend on the processing

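Beside the 329 genes at 2-fold, 537 reached 1.5-fold and 76 reached 4-fold. At 4-fold the other counts were 57 compartment genes (188 at 2-fold), 36 with a MitoProt score of 0.9 or more (108), 57 of 300 residues or more (170), 26 labelled mitochondrion (101), 53 on mitochondrial lists (152), 7 pairs (19) and 8 without annotation (69). The last count was 206 at 1.5-fold, 117 with at least 20 reads and 45 with at least 500. The 4 genes 2-fold below became 26 with at least 20 reads, 2 with at least 100 input reads, 0 with at least 500, 52 at 1.5-fold and 0 at 4-fold. Restricting the length comparison to the smaller matrix class left 46 of 99 long genes enriched (46.5%), beside 7 of 91 short genes (7.69%). Library totals, TMM, a pseudocount of 1, the authors' log2 values and leaving out genes with shared counts moved none of these counts by over 1.5 times; among single lists, library totals left 3 of 5 respiratory subunits and 0 of 1 peroxisomal genes enriched. Over the alternatives that keep the 2-fold threshold, 52.4% to 56.2% of long and 8.46% to 9.24% of short compartment genes were enriched. Near 0, PET112 moved from 0.00 to -0.03 on library totals and SSC1 from -0.03 to -0.07. SOM1 and CIT3 had under 100 input reads, and without such genes no TCA gene was enriched. No paired analysis was possible because each group held 1 library. Depth limits 92 genes whose interval reaches over 0.5 to either side.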

Other observations

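The genes named here were chosen after their values in both pairs were seen, so they show no theme and their order between the pairs is no result. Of the enriched genes without mitochondrial annotation, 19 were below 2-fold with cycloheximide and 49 were not. SSA3, a cytosolic Hsp70, had 57 input and 172 pulldown reads (1.83) and stood at 0.46 with cycloheximide. HXT5, a hexose transporter, had 68 and 184 reads (1.67, and 0.19 with the drug), and GRE1, a hydrophilin, had 67 and 192 (1.75, and 0.76). SSA3, HXT5 and GRE1 passed the read minimum only through their pulldown counts. HSP26, a small heat shock protein, had more reads, 1441 and 2929 (1.27, and 0.78), as did DDR2 with 467 and 913 (1.21, and 0.40).

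Others were above 2-fold in both pairs. The mannoproteins FIT3 and FIT2, which retain siderophore iron in the cell wall, had 1806 and 5170 reads (1.76) and 2063 and 4551 reads (1.38). With the siderophore transporter gene ARN2 (246 and 541 reads, 1.38) they stood with cycloheximide as follows: FIT3 at 2.17, FIT2 at 1.497 and ARN2 at 1.85. MET6, the cytosolic methionine synthase, had 94483 reads in the input and 230284 in the pulldown (1.53, and 2.43 with the drug).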
